A study of Mus musculus with 9 samples.

Results

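Open chromatin at the ends of protein-coding genes was followed across 9 ATAC-seq libraries of mouse LSK cells, the lineage-negative, Sca-1-positive, Kit-positive marrow fraction that holds haematopoietic stem and early progenitor cells. Peaks that shared at least 1 bp in any of the 9 libraries were merged, and a region counted as a gene-end region when its midpoint lay within 1 kb of either end of a GRCm38 protein-coding gene, genes named only by a Gm number or a Rik clone left out. This gave 13688 gene-end regions among 74587 autosomal regions, and 60899 other autosomal regions served for comparison. The groups were WT, Bcat_KO (β-catenin), HOXA9_KO and PRMT1_KO with 2 libraries each, and the dKO, which lacks both β-catenin and Hoxa9, with 1, and 50000 cells went into each library. Titles write KO for the mutants, whereas the genotype tags read knockdown. The series design names transplanted mice for Prmt1KO cells, and the age of the animals, the allele or Cre driver of each mutant and whether 1 mouse or several gave the libraries of a group are not given in the sources used here, so the spread between 2 libraries may be technical.

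Gene starts are where RNA polymerase II and general transcription factors assemble, and the DNA just upstream of an active or poised start is usually free of nucleosomes. Many starts, above all those of genes used in every cell, lie in CpG islands, stretches rich in the CpG dinucleotide that escape DNA methylation, and such starts are open in most cell types. The 3′ end of a gene, where transcripts are cleaved and polyadenylated, is less often nucleosome-free. Of the targeted genes, β-catenin relays Wnt signals to TCF and LEF factors, Hoxa9 is a homeobox factor active in haematopoietic progenitors, and Prmt1 methylates arginines of histones and other proteins.

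Promoter sequences of the regions that the results below turn on are shown first, from 250 bases before to 50 bases after the gene start, credited to RefSeq (GRCm38.p6), 5′ to 3′ on the strand of the gene. CpG dinucleotides are in capitals. The promoters of Hjurp (chr1:88277530-88277829, minus strand), whose product loads the centromeric histone CENP-A, and of Kbtbd3 (chr9:4309493-4309792, plus strand), a kelch-repeat gene, stand for the strongest regions found in every paired library.
Hjurp: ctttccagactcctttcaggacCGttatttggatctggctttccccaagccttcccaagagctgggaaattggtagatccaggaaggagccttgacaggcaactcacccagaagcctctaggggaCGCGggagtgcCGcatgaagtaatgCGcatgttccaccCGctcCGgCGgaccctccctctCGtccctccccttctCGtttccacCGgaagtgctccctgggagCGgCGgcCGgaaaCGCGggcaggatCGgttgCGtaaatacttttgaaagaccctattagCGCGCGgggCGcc
Kbtbd3: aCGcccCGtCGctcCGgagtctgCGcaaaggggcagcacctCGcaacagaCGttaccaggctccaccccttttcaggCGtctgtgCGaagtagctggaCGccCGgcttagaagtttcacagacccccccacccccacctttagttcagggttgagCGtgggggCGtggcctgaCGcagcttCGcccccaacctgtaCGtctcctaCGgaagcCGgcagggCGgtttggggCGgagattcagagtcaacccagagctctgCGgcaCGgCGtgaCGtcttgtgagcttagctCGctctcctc

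The promoters of Sptlc1 (chr13:53377312-53377611, minus strand), which encodes a subunit of serine palmitoyltransferase, the first enzyme of sphingolipid synthesis, and Mri1 (chr8:84257275-84257574, minus strand), a gene of methionine salvage, belong to regions that were strong in WT and weak in a mutant.
Sptlc1: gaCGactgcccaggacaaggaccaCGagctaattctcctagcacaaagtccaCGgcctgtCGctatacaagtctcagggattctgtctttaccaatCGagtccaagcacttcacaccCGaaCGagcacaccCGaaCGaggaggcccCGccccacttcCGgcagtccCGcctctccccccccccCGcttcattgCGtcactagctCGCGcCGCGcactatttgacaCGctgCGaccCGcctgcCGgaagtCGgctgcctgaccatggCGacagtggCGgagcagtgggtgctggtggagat
Mri1: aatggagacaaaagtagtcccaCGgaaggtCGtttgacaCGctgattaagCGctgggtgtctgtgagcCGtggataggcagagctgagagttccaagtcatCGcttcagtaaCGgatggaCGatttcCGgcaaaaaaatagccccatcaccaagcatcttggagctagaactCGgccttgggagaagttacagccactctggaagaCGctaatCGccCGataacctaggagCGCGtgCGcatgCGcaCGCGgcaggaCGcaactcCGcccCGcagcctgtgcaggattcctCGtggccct

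The promoters of Sema3g (chr14:31217623-31217922, plus strand), a secreted semaphorin, Iqca (chr1:90153387-90153686, minus strand), an IQ-motif ATPase gene, and Il18rap (chr1:40515112-40515411, plus strand), the accessory chain of the interleukin-18 receptor, belong to regions that were strong in a mutant and weak or absent in WT.
Sema3g: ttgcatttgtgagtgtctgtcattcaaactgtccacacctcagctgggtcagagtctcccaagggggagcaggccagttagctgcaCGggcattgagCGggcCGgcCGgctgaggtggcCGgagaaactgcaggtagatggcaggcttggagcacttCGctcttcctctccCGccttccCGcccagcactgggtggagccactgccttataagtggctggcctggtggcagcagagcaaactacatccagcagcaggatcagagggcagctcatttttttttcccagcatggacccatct
Iqca: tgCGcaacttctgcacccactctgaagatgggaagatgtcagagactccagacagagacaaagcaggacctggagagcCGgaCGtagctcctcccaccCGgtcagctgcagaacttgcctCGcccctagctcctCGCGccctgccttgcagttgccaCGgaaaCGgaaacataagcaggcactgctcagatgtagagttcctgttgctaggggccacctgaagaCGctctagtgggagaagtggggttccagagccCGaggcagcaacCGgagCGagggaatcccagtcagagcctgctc
Il18rap: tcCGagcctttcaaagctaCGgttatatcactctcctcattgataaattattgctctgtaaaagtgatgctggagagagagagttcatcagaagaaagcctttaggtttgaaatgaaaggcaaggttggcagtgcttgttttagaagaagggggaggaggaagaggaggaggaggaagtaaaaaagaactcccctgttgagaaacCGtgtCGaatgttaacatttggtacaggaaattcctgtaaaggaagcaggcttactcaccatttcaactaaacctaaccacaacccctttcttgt
Hjurp held 22 CpGs, Kbtbd3 25, Sptlc1 25 and Mri1 23. Sema3g held 8, Iqca 13 and Il18rap 4. Among the called starts not printed, the closed Hs3st5 held 9 and the opened Zfp37 17. The other opened starts not printed that had a matched promoter held between 2 (Epsti1) and 12 (Armh4). Only 13 of the 17 called starts had a matched promoter. CpGs were not counted for the opened Pan3, Ggta1, Nr4a1 and Susd1. Among the 13, closed starts mostly held more CpGs than opened ones, but Hs3st5 and Zfp37 went the other way. Few starts were called, and no test was made.

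Each library came as a list of peaks called in that library alone, between 28325 and 45460 in the paired libraries and 10639 in the dKO, so a region was described by its list position, its rank by the −log10 p-value of its peak (1 = strongest). To compare lists of unequal length, each paired list was shortened to its 28325 strongest peaks, the length of the shortest. The background depth inferred from fold and p of the peaks was 6.29 to 7.38 reads per kb in WT, 8.27 to 11.2 in the single mutants and 2.41 in the dKO, and a region without a peak may therefore be one not detectable at that depth. WT peaks were also the widest, with medians of 413 to 463 bp against 311 to 393 bp in the single mutants. WT held 0 peaks on the male-specific part of chromosome Y, where each single-mutant library held 12 to 16 and the dKO 6, so sex and genotype cannot be told apart in any comparison with WT. Of the LSK markers reported, Cd34, Kit and Flt3 had a gene-end region in all 8 shortened lists, Cd48 and Procr in some, Slamf1 in none of the shortened lists, and Ly6a, the gene of Sca-1, had no gene-end region. No marker of the erythroid, granulocyte and monocyte, B cell or other-tissue lists had one in all 8, and of the T and NK markers Cd3d did. Of the targeted genes, Prmt1 had its start region between positions 413 and 800 in the single mutants, at 1926 and 1148 in WT and at 2123 in the shorter dKO list, the Ctnnb1 start region lay between 7025 and 11848 in the 8 paired libraries, and Hoxa9 had no gene-end region. The deleted parts are not given, so these positions do not check the deletions.

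Gene-end regions were mostly constant across the genotypes, and the other regions mostly were not. Of the 13688 gene-end regions, 7791 (56.9%) were in all 8 shortened lists and are called constant, 3517 (25.7%) were in 1 to 7 of them and are called variable, and 2380 (17.4%) had peaks only below the equal length or only in the dKO. Of the other autosomal regions, 12.7% were constant and 43.8% variable. The constancy belonged to gene starts. Start regions numbered 9663, of which 64.8% were constant, and the 790 among them with starts on opposite strands reached 89.2%. The 1160 regions at 3′ ends alone were constant in 11.8%, close to the 12.7% of regions away from gene ends. For 2865 regions the strand of the gene was not given in the table used, and 48.6% of these were constant. At the 1 kb limit of the definition there was no step: 20% of the 446 regions at 900 to 1000 bp were constant, and 16% of the 489 regions at 1000 to 1100 bp.

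**Figure D1:**
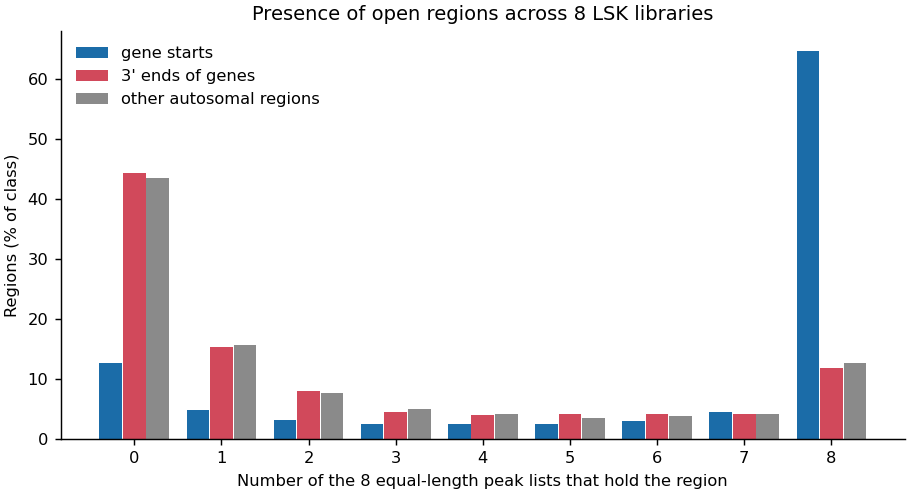
Percent of regions (y axis) held by 0 to 8 of the equal-length peak lists of the paired libraries (x axis), for regions at gene starts, at 3′ ends and elsewhere on autosomes. Start regions pile up at 8 lists (64.8%), whereas 3′-end regions (11.8%) and other regions (12.7%) have nearly the same distribution.

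The strongest regions were mostly gene-end regions, and nearly all of those with a known strand were starts. Gene-end regions took 71.8 to 77.0% of the 2000 strongest peaks of a paired library and 13 to 18% of the peaks from position 25001 on. Among the 2000 strongest were 1195 to 1284 start regions and 1 to 4 3′-end regions per library. Constant 3′-end regions had a median mean position of 11849.5, against 11100.1 for constant regions elsewhere. Constant gene-end regions had a median best position of 3824 and variable ones of 18599. The classes rest on list position, so part of this gap is built in, and elsewhere the medians were 6669 and 20218. Since a strong region is likely to be found again in any list, constancy was compared at like position in 1 list. Regions were sorted by their position in 1 library, and the share held by all other 7 lists was taken, for each library in turn. A like position in 1 list does not make regions alike in strength in the other 7. Start regions were also wider, with a median of 887 bp against 323 bp at 3′ ends and 332 bp elsewhere. What part either has in the shares was not tested. Among positions 1 to 5000, at least 98.1% of regions of each class were in the other 7 lists. At positions 15001 to 20000, a median of 64.2% of start regions (47.6 to 70.8% over the 8 libraries) were held by the other 7 lists, against 31.5% (23.2 to 45%) of 3′-end regions and 32.4% (29.6 to 34.9%) of other regions. At positions 20001 to 25000 the medians were 36.5%, 11.9% and 14.5%. Start regions thus exceeded the other regions in every library at these positions, while the ranges of 3′-end and other regions overlapped. The share of start regions was lowest when the ranking library was a WT library, at 47.6 and 49.2% for positions 15001 to 20000 against 54.8 to 70.8% for the mutant libraries. The 8 values share the same merged regions and are not independent, and no test was made of them.

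**Figure D2:**
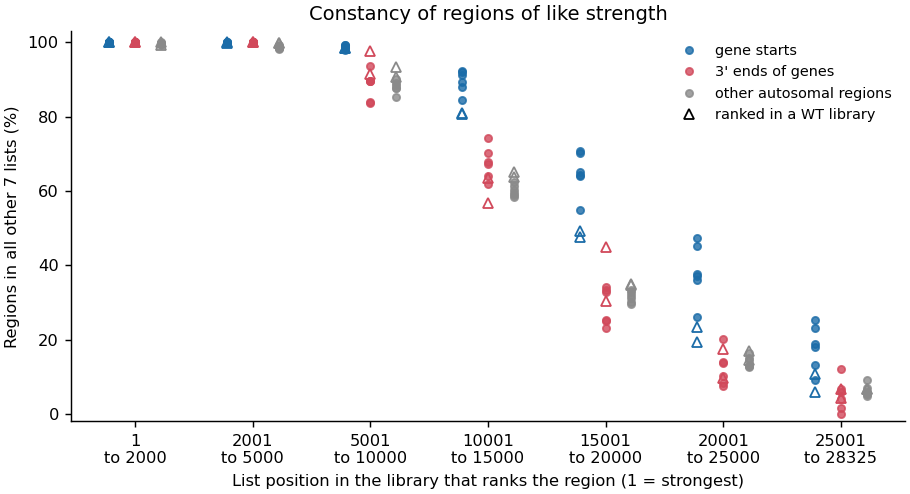
Percent of regions held by all other 7 lists (y axis) against their list position in the library that ranks them (x axis), 1 point per library, with triangles for the WT libraries. At positions 15001 to 20000 the 8 values of start regions (47.6 to 70.8%) lie above those of 3′-end regions (23.2 to 45%) and of other autosomal regions (29.6 to 34.9%).

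The constant regions had similar median positions in the groups, while single regions moved within the lists. Their median mean position was 5649 in WT, and in the mutants 6095.5 (HOXA9_KO), 6274 (Bcat_KO) and 6277 (PRMT1_KO), and the median difference between both libraries of a group was 1177 to 1349 positions. The median gap between the highest and the lowest group mean of a constant region was 2695.5 positions, against 1667.2 between the libraries of a group, the first being a range over 4 means and the second a difference of 2 values. The highest and lowest group means differed by 2-fold or more in 1852 of the 7791 (23.8%) and by 4-fold or more in 71 (0.911%), compared with 29.5% and 2.04% of the 7727 constant regions elsewhere.

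The strongest constant region lay 684 bp from the 3′ end of Lars2, the mitochondrial leucyl-tRNA synthetase gene (chr9:123461782-123462199), at positions 18 to 26 in the paired libraries and 45 in the dKO. Its fold over background, the authors' ratio at the summit, was 37.5 to 48.5 in the paired libraries. The next was the Hjurp start (chr1:88276790-88278073) at positions 19 to 26 and a fold of 15.4 to 19.5. Lars2 was thus stronger by fold than Hjurp although it is the shorter region, 418 against 1284 bp, and no filter for repeats had been applied. The start of Kbtbd3, which it shares with Aasdhppt (chr9:4309165-4310265), held positions 30 to 43. The starts of Pja2, a ubiquitin ligase gene (33 to 45), Qdpr, which regenerates tetrahydrobiopterin (34 to 52), and Stt3a, a catalytic subunit of oligosaccharyltransferase (36 to 62), followed. All 6 had a dKO peak, at positions 36 to 89 of that shorter list.

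Of the constant regions, the starts of Ptprn2 and Ackr3 and the 3′ end of Smtnl1 differed most between groups in mean position. The Ptprn2 start (chr12:116485494-116486379), of a receptor-type phosphatase gene of secretory vesicles, lay at 4103 and 7232 in WT, 10143 and 8227 in Bcat_KO, 6345 and 6760 in PRMT1_KO, and 25815 and 21854 in HOXA9_KO. Both HOXA9_KO libraries were weaker than the 6 others. The Ackr3 start (chr1:90203688-90204289), of an atypical receptor for the chemokine CXCL12, lay at 7584 and 6846 in HOXA9_KO, 12754 and 17888 in Bcat_KO, 12901 and 14965 in WT, and 22913 and 25864 in PRMT1_KO. The groups did not overlap except for Bcat_KO and WT. The Smtnl1 3′ end (chr2:84810728-84811488), of a smoothelin-like muscle protein gene, lay at 25725 and 26726 in PRMT1_KO, 18589 and 14599 in HOXA9_KO, 10980 and 18419 in Bcat_KO, and 7912 and 10657 in WT. Its PRMT1_KO libraries were the weakest of the 8. These were picked as the largest differences, so the order of the groups is a description.

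Peak summits of constant start regions sat on the gene start. The median summit lay 4 bp upstream (position -4, quartiles -66.5 and 76), with 79.1% of 6159 summits within 200 bp. For variable start regions the median was 48.2 bp downstream and 59.0% of 2146 were within 200 bp, and for regions found only below the equal length 113 bp and 35.5% of 1195. Constant gene-end regions had a median width of 1009 bp, variable ones 601 bp and the remainder 234 bp, which follows in part from merging peaks of more libraries.

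Promoters of constant regions were rich in CpG. A promoter entry matched 13731 genes, 89.7% of those with a strand, and a promoter counted as CpG-rich with at least 50% G and C and an observed-to-expected CpG ratio of at least 0.6 in its 300 bases. Of promoters with a constant start region 79.5% were CpG-rich, of those with a variable one 52.9%, of those with a region only below the equal length 38.4%, and of those with no open region 6.75%. The median number of CpGs fell in the same order, from 23 to 17, 13 and 3. Read the other way, 77.5% of 6894 CpG-rich promoters had a constant start region and 4.38% had no open region, against 20.1% and 61.0% of 6837 CpG-poor ones.

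Short motifs were counted on both strands in the same windows. The GC box of SP and KLF factors (GGGCGG) was in 71.1% of promoters with a constant region, 59.1% with a variable one and 14.1% with none, compared with 50% of all promoters. The ETS core (CCGGAAG) was in 21.4%, 10.3% and 2.33%, and in 12.8% of all. NRF1 (GCGCATGCG) was in 4.42%, 2.54% and 0.492%, YY1 (AAGATGGCG) in 3.75%, 1.53% and 0.201%, and CREB (TGACGTCA) in 4.19%, 1.53% and 0.671%, with 2.71%, 2.13% and 2.56% of all. Each of these motifs contains CpG, and motif shares at matched CpG content were not compared. The TATA box (TATAAA) went the other way, with 6.23%, 8.09% and 27.0%, and 13.4% of all. The median G and C content of these promoters was 62%, 60% and 46.3% in the same order. Shares of this motif and of those that follow were not compared at matched G and C content. AP-1 (TGANTCA) was in 3.98%, 5.76% and 12.3%, and in 7.18% of all. RUNX (TGTGGT) was in 11.3%, 13.5% and 18.8% (14.1% of all), and the motif of GATA factors, AGATAAG, in 1.5%, 1.85% and 4.47% (2.55% of all). The motif of TCF and LEF, the partners of β-catenin (CTTTGAA), was in 3.07%, 4.65% and 6.73%, and in 4.52% of all. A HOX-PBX motif (TGATTTAT) was in 0.298%, 0.211% and 1.72%, and in 0.750% of all. The PU.1 motif (GAGGAAGT) was in 2.83%, 3.59% and 3.96% (3.31% of all), NFY (CCAAT) in 41.2%, 31.2% and 40.5% (39.2%), and CTCF (AGNGGGC), which overlaps the GC box, in 39.5%, 34.8% and 16.3% (31.1%). In the promoters printed above, Hjurp held 1 ETS core, Sptlc1 2 and Mri1 an NRF1 match that overlaps itself on the other strand, and Il18rap 1 match each of PU.1, RUNX and TCF/LEF. A match is a run of letters, not a bound site.

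**Figure D3:**
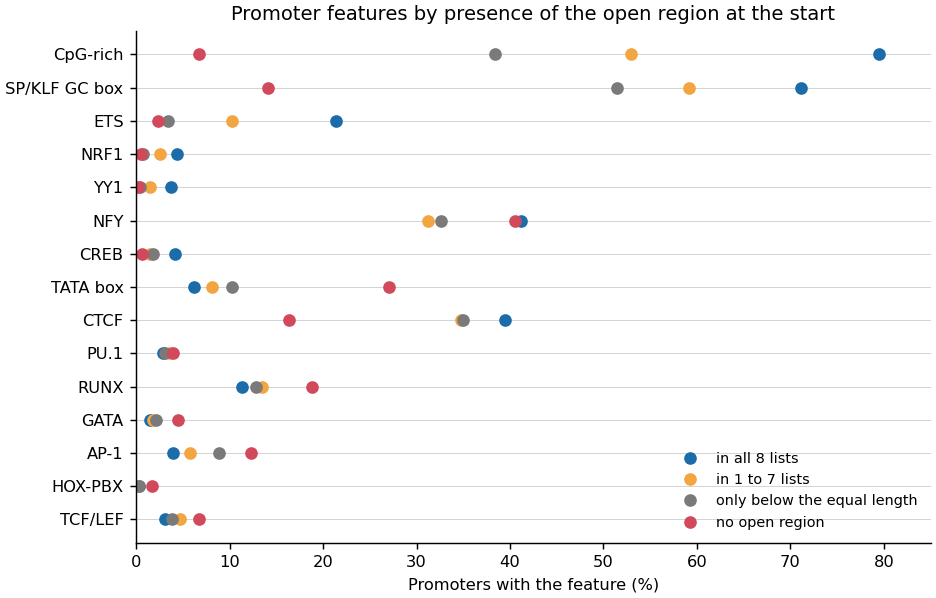
Percent of promoters (x axis) that are CpG-rich or hold a motif (y axis), by whether the open region at the start is in all 8 lists, in 1 to 7, only below the equal length, or absent. CpG-rich promoters fall from 79.5% to 6.75% across these classes, and the TATA box rises from 6.23% to 27.0%.

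Which genes had constant ends followed known gene families. Over all 19302 genes, 45.4% had a constant region at an end, 15.2% a variable one and 33.5% no open region. In families used in every cell the constant share was higher: 41 of 45 spliceosome protein genes, 68 of 78 cytosolic ribosomal protein genes, 45 of 53 initiation factor genes, 32 of 38 subunits of respiratory complex I, 32 of 39 proteasome subunits, 54 of 67 histones, 62 of 78 mitochondrial ribosomal proteins and 22 of 28 Mediator subunits. The genes that were not constant included, named after their values were seen, paralogs of restricted use, such as Rpl10l, Rpl39l, Psma8, Psmb11, H1f6 and Snrpn, but also Rpl8, Rpl19 and Srsf1. Zinc finger genes were constant in 299 of 455 (65.7%) and solute carriers in 160 of 376 (42.6%). Families with tissue-restricted use were nearly without constant ends: 5 of 1104 olfactory receptors, 2 of 354 vomeronasal receptors and none of 53 keratins, 56 keratin-associated proteins or 71 defensins. Multicopy families may lose reads where copies cannot be told apart, and whether these families did was not tested.

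Of 39 Hox genes, which set position along the body axis and act in blood progenitors, none had a constant end, 9 a variable one, 8 a region only below the equal length and 22 none. Of 67 protocadherins, adhesion molecules of neurons, 3 were constant (Pcdh17, Pcdhgc3 and Pcdhgc4) and 27 (40.3%) variable. Of the 7 stem cell transcription factors that act together in these cells, Tal1, Lyl1 and Runx1 had constant ends. Lyl1 lay between positions 4215 and 7694, Tal1 between 5277 and 11507, and Runx1 between 11541 and 19751. Lmo2 was in 7 of the lists, Erg in 2, Gata2 in none of the shortened lists and Fli1 had no gene-end region under the annotated ends.

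**Figure D4:**
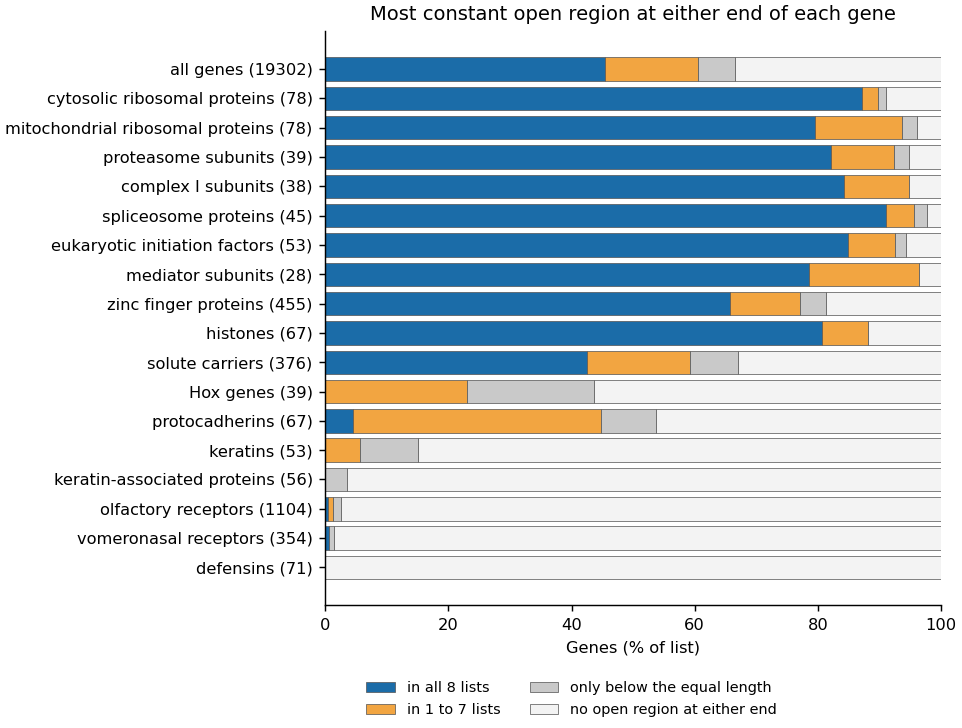
Percent of the genes of each list (x axis; number of genes in brackets) whose most constant gene-end region is in all 8 lists, in 1 to 7, only below the equal length, or absent. Families used in every cell reach 78.6 to 91.1% in all 8 lists against 45.4% of all genes, whereas Hox genes reach 0%.

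Few of the variable regions followed whole genotypes. Of the 3517 variable gene-end regions, 327 (9.30%) were held by both libraries of some groups and by neither library of the others, against 11.9% of the 26666 variable regions elsewhere. WT alone held 65 of them (1.85% of the variable gene-end regions, against 1.77% of variable regions elsewhere), HOXA9_KO alone 47 (1.34% against 2.4%), all 3 single mutants 39 (1.11% against 1.69%) and all groups but PRMT1_KO 34 (0.967% against 0.308%). Of the 495 found in exactly 2 libraries, 144 (29.1%) were in both of 1 group, against 1644 of 4681 (35.1%) elsewhere. WT replicate 1 and WT replicate 2 each held 54.3% of the variable gene-end regions, HOXA9_KO 51.6 and 45%, Bcat_KO 44.7 and 40.5%, and PRMT1_KO 43.2 and 38.7%. Among variable regions elsewhere WT held 37.2 and 35.0%, the lowest values of the 4 groups, so at equal list length WT lists leaned towards gene ends. Of the peaks themselves, 34.6 and 35.7% of the WT list lay at gene-end regions (35.2 ± 0.778%, SD, n = 2), against 34.5 and 34.0% in HOXA9_KO, 34.0 and 33.7% in Bcat_KO and 33.4 and 33.3% in PRMT1_KO. Both WT values lay above all mutant values, the nearest pair being closer than both WT libraries were to each other, and the WT libraries were also the shallowest, a part in the result that was not tested. The overlap of gene-end regions between libraries (shared over all regions, the Jaccard index) had a median of 0.883 within groups, 0.873 between mutants and 0.853 between WT and a mutant. For regions elsewhere these medians were 0.635, 0.579 and 0.507. The 3′-end regions gave 0.616, 0.563 and 0.501. The WT libraries overlapped each other no more than the range of their overlaps with mutants. At gene ends the WT pair gave 0.863, against 0.84 to 0.866 between WT and a mutant. Elsewhere it gave 0.538 (0.475 to 0.555), and at 3′ ends 0.521 (0.45 to 0.564).

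To name regions that differed between genotypes, closed in a mutant meant within positions 1 to 14162 of each WT library and absent from the equal-length list of each library of that mutant. Opened meant the same with WT and mutant exchanged. Of the 11308 gene-end regions in at least 1 shortened list, 27 (0.239%) were called in any comparison. This total has no counterpart over all autosomal regions here, whose shares are given below for each comparison. No p is given: the lists record presence and rank, and an exact permutation of 2 libraries against 2 cannot pass the usual threshold for a single region. The 3 comparisons share the WT libraries. Of the 21 distinct opened regions, 18 were without any peak in WT, also below the equal length, whereas each of the 6 closed regions kept a weak peak in single-mutant lists, and WT was the shallower side. The counts depend on the rule: with the strongest 25% of the list in place of 50%, 0 gene-end regions were called in any comparison. Where peaks had to cover at least 50% of a region to count, 144 closed and 28 opened gene-end regions were called in Bcat_KO. In HOXA9_KO these were 68 and 57, and in PRMT1_KO 40 and 28. WT peaks were the wider ones, and their part in these counts was not tested. Calls under these and the other changed settings below were counted at gene ends alone. With no share over all autosomal regions beside them, they say nothing about gene ends in particular.

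**Figure D5:**
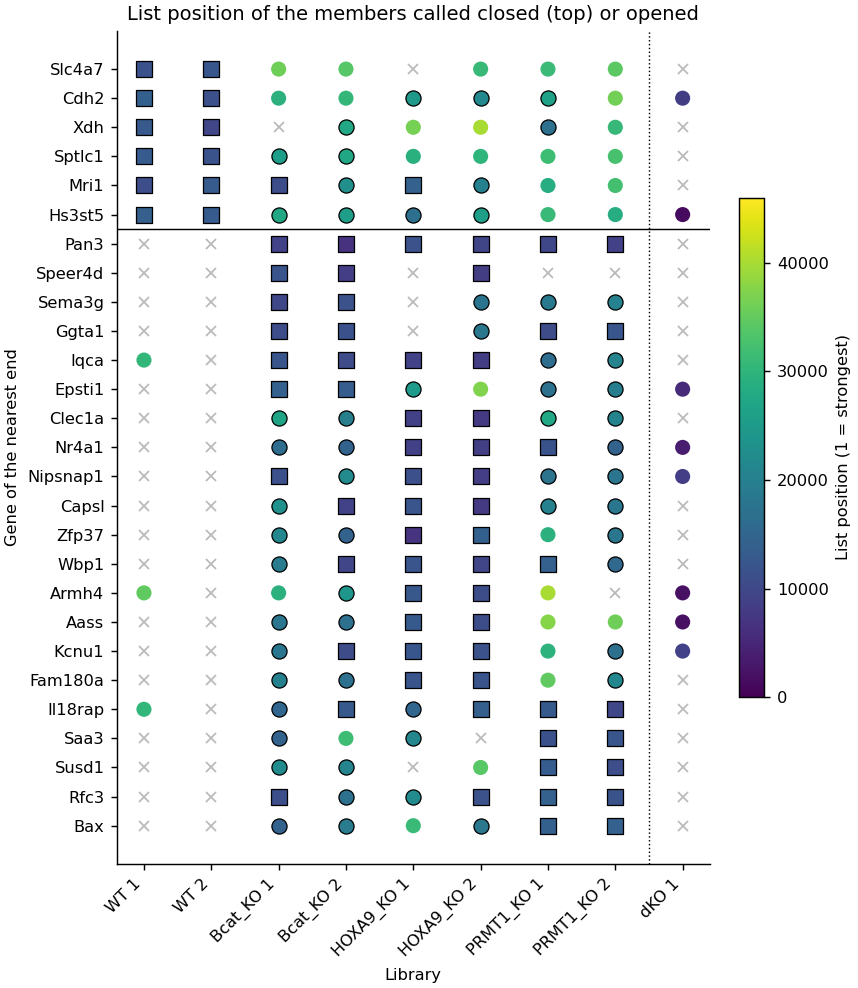
List position (colour, 1 = strongest) of each gene-end region called closed (above the line) or opened (below it) in any single mutant, by library (x axis) and gene of the nearest end (y axis). Squares are within positions 1 to 14162, outlined circles within the equal-length list, plain circles below it, crosses have no peak, and dKO positions are in its own shorter list; the 6 closed regions have squares in both WT libraries and the 21 opened ones lie outside the equal-length list there.

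In Bcat_KO, 2 gene-end regions were closed and 6 opened relative to WT, 0.0177% and 0.0531% of those tested. Over all 45701 autosomal regions tested, 0.0744% were closed and 0.254% opened, so the shares at gene ends lay below those of all regions, a difference that was not tested. The region 638 bp from the 3′ end of Slc4a7, a sodium bicarbonate cotransporter gene (chr14:14800042-14801123), lay at positions 11366 and 12398 in WT and at 35811 and 33898 in Bcat_KO. Its peaks had 21 and 16 reads at the summit in WT and 9 and 10 in Bcat_KO. Cdh2, the N-cadherin gene (chr18:16808152-16809840), lay at 13898 and 11226 in WT and at 29468 and 30531 in Bcat_KO. Both regions were stronger in the WT libraries than in any of the 6 single-mutant libraries.

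The strongest region opened in Bcat_KO was near the start of Pan3, a subunit of the deadenylase that shortens poly(A) tails (chr5:147426428-147426782). It lay at positions 8991 and 6648 in Bcat_KO, where its summit reached 7.83 ± 1.32 (SD, n = 2) times background, and had no peak in WT. A region near the 3′ end of Speer4d, one of a multicopy family in which reads may be shared between copies, lay at 12097 and 8290 in Bcat_KO and at 8122 in HOXA9_KO replicate 2, with no peak in the 5 other paired libraries. The Sema3g start (chr14:31217576-31218039) lay at 9739 and 11523 in Bcat_KO, with a fold of 9.50 ± 0.164 (SD, n = 2). It lay at 18550 and 20363 in PRMT1_KO and at 17625 in 1 HOXA9_KO library, and had no peak in WT. The others were near the starts of Ggta1, which makes the α-galactose epitope (10708 and 11336), Iqca (12314 and 10583) and Epsti1, an interferon-induced gene (14075 and 13399). Without 1 of the libraries the rule rests on a single library of that group and called more: 20 and 16 closed and 18 and 16 opened without Bcat_KO replicate 1 or 2, and 21 and 27 closed and 29 and 23 opened without WT replicate 1 or 2.

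HOXA9_KO had 12 opened gene-end regions (0.106% of those tested) and 3 closed ones (0.0265%). At equal list length its opened count was the highest of the 3 mutants, whereas with the lists as deposited it was the lowest, at 32 against 39 in Bcat_KO and 36 in PRMT1_KO. Over all autosomal regions 0.429% were opened and 0.149% closed. The closed regions were those at Xdh, the xanthine dehydrogenase gene of purine breakdown, Slc4a7 and Sptlc1. Xdh (chr17:73949606-73950455) lay at 12656 and 9629 in WT and 36465 and 40024 in HOXA9_KO. It lay at 16751 and 30805 in PRMT1_KO, so the libraries of that mutant differed widely. The Sptlc1 start (chr13:53376998-53377738) lay at 13096 and 11792 in WT, 29124 and 29953 in HOXA9_KO, 25435 and 27366 in Bcat_KO, and 31618 and 32602 in PRMT1_KO. All 6 mutant libraries were weaker there than both WT libraries.

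The best placed opened regions in HOXA9_KO were at Clec1a, a C-type lectin-like receptor gene, Nr4a1, an immediate early nuclear receptor gene, and Iqca. Clec1a (chr6:129425876-129426334) lay at 8738 and 7874 in HOXA9_KO, with a fold of 10.9 ± 1.15 (SD, n = 2), at 19589 to 27659 in the other mutants, and had no peak in WT. The Nr4a1 start (chr15:101253847-101254426) lay at 8710 and 8498 in HOXA9_KO, 16212 and 14538 in Bcat_KO, 11825 and 14406 in PRMT1_KO and 3772 in the shorter dKO list, with no peak in WT. The Iqca start (chr1:90153083-90153918) lay at 9114 and 8159 in HOXA9_KO, 12314 and 10583 in Bcat_KO, 16303 and 20843 in PRMT1_KO and 30274 in WT replicate 1. In all 3, both HOXA9_KO libraries were stronger than the other paired libraries. Zfp37, a zinc finger gene, lay at 6975 and 13879 in HOXA9_KO, 21276 and 14294 in Bcat_KO and 29453 and 18121 in PRMT1_KO, and had no peak in WT. The remaining 8 were near Nipsnap1, Capsl, Pan3, Wbp1, Armh4, Aass, a gene of lysine breakdown, Kcnu1, which shares the region with Ash2l, and Fam180a. All 8 also had a peak in both Bcat_KO libraries. Bcat_KO replicate 2 ranked Pan3 (6648), Wbp1 (9561) and Kcnu1 (10497) above both HOXA9_KO libraries, and Capsl (9117) between them. Both HOXA9_KO libraries ranked Nipsnap1, Armh4, Aass and Fam180a above both Bcat_KO libraries. Without HOXA9_KO replicate 1 or 2, 16 and 20 were closed and 32 and 29 opened, and without WT replicate 1 or 2, 30 and 25 were closed and 45 and 32 opened.

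In PRMT1_KO, 4 gene-end regions were closed (0.0354% of those tested) and 7 opened (0.0619%), against 0.0591% and 0.173% of all autosomal regions. Besides Slc4a7 and Sptlc1, the closed regions were the Mri1 start and a region 694 bp from the start of Hs3st5, a heparan sulfate sulfotransferase gene. Mri1 (chr8:84256162-84257568) lay at 10844 and 12992 in WT and 28693 and 32335 in PRMT1_KO. In Bcat_KO it lay at 10775 and 22850 and in HOXA9_KO at 14025 and 19959, so these mutants overlapped WT or lay between. Hs3st5 lay at 13678 and 12938 in WT and 30934 and 28690 in PRMT1_KO.

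Among the opened regions in PRMT1_KO, Pan3 lay at 9777 and 8629, Ggta1 at 10422 and 12307 and the Il18rap start (chr1:40514971-40515584) at 12921 and 9858, with a fold of 10.6 ± 0.805 (SD, n = 2). Il18rap was also within the list of every other mutant library, at 12734 to 15182, and at 30242 in WT replicate 1. The remaining 4 were Saa3, an acute-phase protein gene (11459 and 12394), Susd1 (13432 and 10827), Rfc3, a subunit of the clamp loader of DNA replication (14119 and 11708), and Bax, a pro-apoptotic gene (14007 and 14080). These 4 had no peak in WT, and the Saa3, Rfc3 and Bax regions lay at 3′ ends. None of the 4 was particular to PRMT1_KO. Rfc3 lay at 11079 and 17003 in Bcat_KO and at 22079 and 11597 in HOXA9_KO, so 1 library of each ranked it above both PRMT1_KO libraries. Bax lay at 14341 and 19127 in Bcat_KO and at 31207 and 18268 in HOXA9_KO. In Bcat_KO, Saa3 lay at 14451 and 31800, and Susd1 at 21927 and 20795. Without PRMT1_KO replicate 1 or 2, 27 and 15 regions were closed and 16 and 15 opened, and without WT replicate 1 or 2, 20 and 21 were closed and 22 and 20 opened.

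Few regions set 1 group apart from the 6 other paired libraries. Slc4a7 was the 1 gene-end region of WT alone, where 0.00656% of all autosomal regions were called. No gene-end region was called for Bcat_KO alone (0.0109% of all autosomal regions), HOXA9_KO alone (0.0481%) or PRMT1_KO alone (0.00656%). Pan3 was opened and Slc4a7 closed in all 3 mutants, comparisons that share the WT libraries. Of the genes in the lists above, Zfp37 among zinc finger genes and Slc4a7 among solute carriers had a called region.

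The shares called were lower at gene ends than elsewhere also among regions of like mean position in the holding libraries, again with no test. Among regions at a mean position of 10000 to 14162 in the 2 libraries that held them, 5 of 771 gene-end regions (0.649%) and 73 of 1532 others (4.77%) were opened in Bcat_KO. In HOXA9_KO 7 of 818 (0.856%) and 129 of 1595 (8.09%) were opened, and in PRMT1_KO 6 of 828 (0.725%) and 50 of 1681 (2.97%). The closed calls were 2 of 770 against 28 of 1447 in Bcat_KO, 3 of 770 against 49 of 1447 in HOXA9_KO, and 4 of 770 against 19 of 1447 in PRMT1_KO. Opened starts with a matched promoter were mostly not CpG-rich, unlike constant ones, but they were few and no test was made. Of 17 called start regions, 13 had a matched promoter. Of these, 3 were CpG-rich, the closed Sptlc1 and Mri1 and the opened Zfp37. The closed Hs3st5 and the other opened starts among the 13 were not. Of promoters with a constant region 79.5% were CpG-rich, and of those with a variable one 52.9%.

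The single dKO library, which has no replicate check, had a peak at 5407 gene-end regions, 39.5% (95% Wilson interval 38.7 to 40.3%, counting error only), against 7.80% of other autosomal regions. Of these 5407, 4922 (91.0%) were constant in the 8 paired lists. Its presence followed strength: with the constant gene-end regions split by mean position into 4 equal parts, 96.9%, 74.6%, 51.0% and 30.2% had a dKO peak, from the strongest part to the weakest. Of variable gene-end regions 11.8% (10.7 to 12.9%) had one, and of those below the equal length 2.98% (2.37 to 3.75%). Constant 3′-end regions had a dKO peak in 27.7% (20.9 to 35.8%) and constant start regions in 63.4% (62.2 to 64.6%), at a median mean position of 11849.5 and 6009. At the dKO length of 10639 peaks, 53.2% of its autosomal regions were gene-end regions, against 54.5 to 60.9% in the paired lists cut to that length, and 71.6 to 74.5% of the gene-end regions of such a list were in the dKO list.

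The strongest constant gene-end regions without a dKO peak, chosen after their values were seen, were the start of Gsto2, a glutathione transferase gene (positions 415 to 1586 in the paired lists), the start shared by Tmed5 and Ccdc18 (532 to 1525), and the Lcmt1 start (760 to 1216), the gene of a carboxyl methyltransferase of protein phosphatase PP2A. Of all 10155 autosomal regions with a dKO peak, 943 had no peak in the 8 full paired lists. Of these, 903 were among the 4748 away from gene ends. The other 40 were gene-end regions (0.740% of 5407), with 4 to 12 reads at the summit. These weak regions included Hoxb2 and Hoxb5, at positions 10508 and 9918 near the foot of the dKO list, named here after their values were seen. Of the called regions, the dKO had a peak at 2 of the 6 closed ones (Cdh2 and Hs3st5) and at 6 of the 21 opened ones (Epsti1, Nr4a1, Nipsnap1, Armh4, Aass and Kcnu1).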

How the data were processed

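Per the submitters' processing notes, the authors used Bowtie2 2.4.2, SAMtools 1.14, Picard 2.27.4 and MACS2 with GRCm38/mm10. Each deposited peak list, 1 per library, held a score, the authors' fold enrichment (a ratio at the summit), a −log10 p-value and −log10 q-value from MACS2, and a summit offset, none normalized between libraries. Ranks were taken by −log10 p within a list. Fold is given across lists only as means, SDs and ranges over libraries, which join values not normalized between lists. Reads at a summit were recovered from the authors' fold and −log10 p, and came out whole within 0.01 for at least 99.99% of peaks of each library. The depth inferred from them limits what a missing peak means, and the 2 libraries of a group limit the precision of its values.

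Peaks were merged at 1 shared bp, and ends of 19302 genes on 19 autosomes came from a RefSeq table of GRCm38.p6, with the strand of 15311 from its promoter table. A region near a start was a start region even when also near a 3′ end. The gene named is that of the nearest end. No test was made: counts and shares stand beside those of all or of the other autosomal regions. Binomial intervals are Wilson, 95%. Named were, for each comparison and direction, the 3 called regions with the best mean position, the 6 strongest and 3 most different constant regions, and list genes with a call. Further called regions were named after their values were seen, since few were called. The regions and gene lists were chosen with earlier results of these data known. 1 LSK marker of the list is not reported here. Region sequence was not used here, and the printed promoters stand in for it. The call rule and the read recovery were tested on simulated data. For the call rule, strong regions were made missing on 1 side, so it had to recover them. That checks the code and does not show how the rule behaves on these data. Python 3.11.15, pandas 2.3.3, NumPy 2.4.6, SciPy 1.17.1 and Matplotlib 3.10.9 were used. The alternatives tried were the full lists, a −log10 q of at least 5, a smaller strong part, 50% coverage, 500 bp, summits for midpoints, and each library left out.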

Additional observations from a re-analysis of the deposited data

Results flagged for a closer look

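Gene ends on the sex chromosomes lay outside the autosomal definition, and chromosome Y held a signal above the WT level. Of 4 gene-end regions on its male-specific part (Kdm5d, Eif2s3y, Uty and Ddx3y), at least 3 had a peak in each Bcat_KO library, 4 in each HOXA9_KO library, at least 3 in each PRMT1_KO library and 3 in the dKO, while both WT libraries had 0. On chromosome X, 438 regions met the definition, and 327 to 376 had a peak in a paired library. What part the sex of the animals has in the autosomal calls cannot be told apart from genotype.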

How the results depend on the processing

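The constancy of gene-end regions kept its direction against other regions in each setting run for it (all but the smaller strong part, which does not enter it), while the counts of calls did not hold. With the lists as deposited, 63.5% of gene-end and 16.4% of other regions were in all 8 lists, with −log10 q of at least 5 these were 59.1% and 14.8%, with 50% coverage 38.7% and 6.01%, and at 500 bp 64.3% and 13.3%. Leaving out each library gave 57.5 to 58.8% and 13.4 to 14.1%. A dKO peak was at 25% at the stricter q-value, at 44.0% at 500 bp and at 39.5 to 40.3% without each library. The median best position of constant minus that of variable gene-end regions, a gap in part built into these classes, was -14775. It was -23045 with the lists as deposited, -10118.5 at the stricter q-value, -10281 with 50% coverage and -15243.5 to -15032.5 without each library. The number of gene-end regions was 13431 to 13673 without each library.

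The share of the list at gene ends in Bcat_KO, HOXA9_KO, PRMT1_KO and WT was 26.7%, 28.1%, 27.4% and 32.9% with the lists as deposited, 40.8%, 41.7%, 40.3% and 43.0% at the stricter q-value, and 29.8%, 30.2%, 29.4% and 30.8% at 500 bp. Without either library it was 33.7 to 34.0%, 34.0 to 34.5%, 33.3 to 33.4% and 34.6 to 35.7%.

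Closed gene-end regions in Bcat_KO, HOXA9_KO and PRMT1_KO numbered 9, 5 and 1 at the stricter q-value, 144, 68 and 40 with 50% coverage, 1, 1 and 1 with the lists as deposited and 0, 0 and 0 with the strongest 25%. At 500 bp they were 1 in Bcat_KO and 2 in PRMT1_KO. Opened ones numbered 28, 57 and 28 with 50% coverage, 39, 32 and 36 with the lists as deposited and 0, 0 and 0 with the strongest 25%, and 1 in PRMT1_KO at the stricter q-value. Without each library, closed ranged from 16 to 27, 16 to 30 and 15 to 27, and opened from 16 to 29, 29 to 45 and 15 to 22, because a lone library meets the rule more easily. Regions of WT alone numbered 0 at the stricter q-value, at 500 bp, with the lists as deposited and with the strongest 25%, 6 with 50% coverage, and 1 to 7 without each library. With 50% coverage 1 region of Bcat_KO alone and 2 of HOXA9_KO alone were called, and with the lists as deposited 1 of HOXA9_KO alone. Without each library these ranged from 0 to 1 in Bcat_KO, 0 to 2 in HOXA9_KO and 0 to 1 in PRMT1_KO. Apart from the lone library, the cause of these changes was not tested. No calls under these settings were counted over all autosomal regions. A merge without the dKO list, chosen after seeing the data, and summits for midpoints moved none of these results past the limits used.

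No paired analysis was possible because no result comes from a fitted test, and the replicate numbers carry no stated pairing.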
